A study of Mus musculus with 2 samples.

Results

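Oligodendrocyte precursors were picked out, by the transcripts they held, from spatial expression data of E16.5 mouse heads measured by MERFISH, a method that reads RNA molecules in tissue as fluorescent barcodes over repeated imaging rounds. A segmented cell was taken as a precursor cell where it held at least 20 panel transcripts, at least 1 count of *Olig1*, at least 2 counts of *Gpr17* and *Pdgfra* together, and 0 counts of *Dcn* and *Col14a1*. The last limit was set because *Pdgfra* is also made by fibroblasts and other mesenchymal cells of the head. The rule found 1150 precursor cells among the 156481 cells over the minimum of 20 transcripts, of which 266 were control cells and 884 were KO cells. Since these cells were chosen by their own counts, the values of the 5 genes in the rule describe the choice and are no finding.

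The control section came from a *Sst-Cre/tdTomato* embryo and the KO section from a *Sst-Cre/tdTomato/Dnmt1 loxP2* embryo. Both carried Cre recombinase under *Sst*, which encodes the neuropeptide somatostatin, together with the tdTomato reporter, and only the KO carried loxP-flanked *Dnmt1*, the gene of a DNA methyltransferase. Recombination is therefore directed at cells that express *Sst*, not at oligodendrocyte precursors, and these counts cannot check the deletion, as the panel held no *Dnmt1* probes. Each group is 1 coronal section of 10 µm from a whole fresh-frozen head, measured in 1 run. Run and genotype thus cannot be told apart, there is no replicate check, and no test, p-value or standard error is given between the groups.

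Oligodendrocyte precursors are the dividing glial cells from which the myelin-forming oligodendrocytes develop. In the forebrain the earliest of them arise in ventral germinal zones and migrate out into the surrounding tissue, and later ones arise more dorsally. *Olig1* and *Olig2* encode the transcription factors of the lineage, *Pdgfra* the receptor for the platelet-derived growth factor that drives precursor division, and *Gpr17* a receptor that marks precursors on the way to differentiation. Myelin genes are switched on only later, after birth for most of the mouse forebrain.

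The sections differed in depth, which bears on every comparison between them. Panel transcripts in cells summed to 2842355 for the control and to 13437174 for the KO section. The minimum was reached by 55231 of 108533 segmented control cells and by 101250 of 110004 KO cells. Precursor cells held a median of 44 transcripts in the control (lowest 20, highest 242) and 168.5 in the KO (lowest 21, highest 764). They were deeper than the other cells of the brain, whose medians were 32 and 102. They were also larger, with a median volume of 1305 µm³ against 1197 µm³ in the control and 1225 µm³ against 791 µm³ in the KO section. The rule asks for set numbers of counts, which favours cells with more transcripts. Its part in the depth and volume of precursor cells was not tested. Blank barcodes, which code for no gene, took 0.364% of the decoded counts of control precursor cells and 0.47% of those of KO precursor cells.

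Among the genes that chose them, *Olig1* had a median of 2 counts per precursor cell in the control (highest 16) and 3 in the KO (highest 27). *Gpr17* had a median of 1 (highest 7) and 2 (highest 24), and *Pdgfra* a median of 2 (highest 14) and 4 (highest 40). Among brain cells over the minimum these cells held 59.9% of *Gpr17* counts in the control and 66.7% in the KO, and 39.1% and 58.0% of *Pdgfra* counts. The rule chose them by these genes, so the shares describe the choice. Of all *Gpr17* molecules of the section, with those in shallower cells or in no cell, 34.8% and 44.9% lay in precursor cells. Over all cells of the head at or above the minimum the share of *Pdgfra* was 7.30% and 11.1%, the rest lying mainly outside the brain. Molecules that the segmentation had given to no cell made up 11.1% of *Gpr17* molecules in the control and 14.5% in the KO, against 18.6% and 18.4% of all panel molecules. Of these unassigned *Gpr17* molecules, 16.0% in the control and 39.5% in the KO lay within 15 µm of the centre of a precursor cell, where 1.56% and 3.81% of all unassigned panel molecules lay.

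Both receptors were counted together in 164 control precursor cells (61.7%) and 638 KO precursor cells (72.2%). *Pdgfra* without *Gpr17* was found in 73 and 225 cells, and *Gpr17* without *Pdgfra* in 29 and 21 cells. This last share was 10.9% in the control and 2.38% in the KO, a log2 ratio of -2.20. With KO counts thinned to the control depth the ratio was -1.71 (-3.40 to -0.20), and with cells thinned to 25 transcripts -1.40 (-2.92 to 0.07). Both genes are part of the rule, so these shares are a description of the choice. Many cells lay near the limits of the rule. In the control 97 cells (36.5%) held the least allowed sum of 2 *Gpr17* and *Pdgfra* counts and 73 (27.4%) held a single *Olig1* count, and in the KO these were 175 (19.8%) and 208 (23.5%). Just outside it, 221 control and 499 KO cells had *Olig1* and a sum of 1, and 24 control and 244 KO cells were left out only for a *Dcn* or *Col14a1* count. In those 24 and 244 cells *Igf2*, a growth factor gene of mesenchyme and meninges, stood at 101151 and 99546 CPM, the panel counts of a set of cells scaled to a total of 1000000, against 7237 and 3985 CPM in the precursor cells. A further 508 control and 1207 KO cells had at least 2 *Gpr17* and *Pdgfra* counts but 0 *Olig1*. They lay inside the brain in 26% and 30% of cases.

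Genes that the rule did not use gave a check of the label. *Olig2* reached 29991 CPM in control precursor cells and 16326 CPM in KO precursor cells, against 2651 and 1627 CPM in the other cells of the brain. *Bcan*, which encodes the matrix proteoglycan brevican, reached 10370 and 5688 CPM against 793 and 481 CPM. *Cspg4*, the gene of the NG2 proteoglycan that is widely used to mark these precursors, reached 31185 and 9190 CPM against 732 and 335 CPM. At least 1 of these 3 genes was counted in 238 of 266 control precursor cells (89.5%, 95% exact binomial interval 85.1 to 92.9) and 782 of 884 KO precursor cells (88.5%, 86.2 to 90.5), but in only 10.4% and 15.2% of the other brain cells. All 3 were counted in 19.2% and 34.0% of precursor cells and in 0.1% and 0.182% of the other brain cells. This set of 3 genes was chosen after their values had been seen. Of the 8 panel genes listed for the lineage, *Vcan* and *Bmp4* stood lower than in other brain cells in both sections. The shares above were not thinned, though precursor cells were deeper. At 25 transcripts per cell, *Olig2* was counted in 50.2% of control and 31.1% of KO precursor cells, against 5.34% and 3.74% of other brain cells. For *Cspg4* these were 50.2% and 21.3% against 1.53% and 0.736%, and for *Bcan* 17.4% and 14.6% against 1.84% and 1.21%.

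This check was also read by *Olig1* count, as a description, since *Olig1* is a gene of the rule. In the KO, 72 of those 208 cells (34.6%) had none of the 3 genes, against 13 of 551 (2.36%) among the cells with 3 or more *Olig1* counts. In the control these were 14 of 73 (19.2%) and 9 of 126 (7.14%). *Igf2* stood at 25401 CPM in the control and 11900 CPM in the KO cells with 1 *Olig1* count, and at 978 and 1966 CPM in those with 3 or more. The cells with a single *Olig1* count were also shallower, with medians of 37 against 49 transcripts in the control and 150.5 against 181 in the KO, and the part of depth in these shares was not tested.

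**Figure D1:**
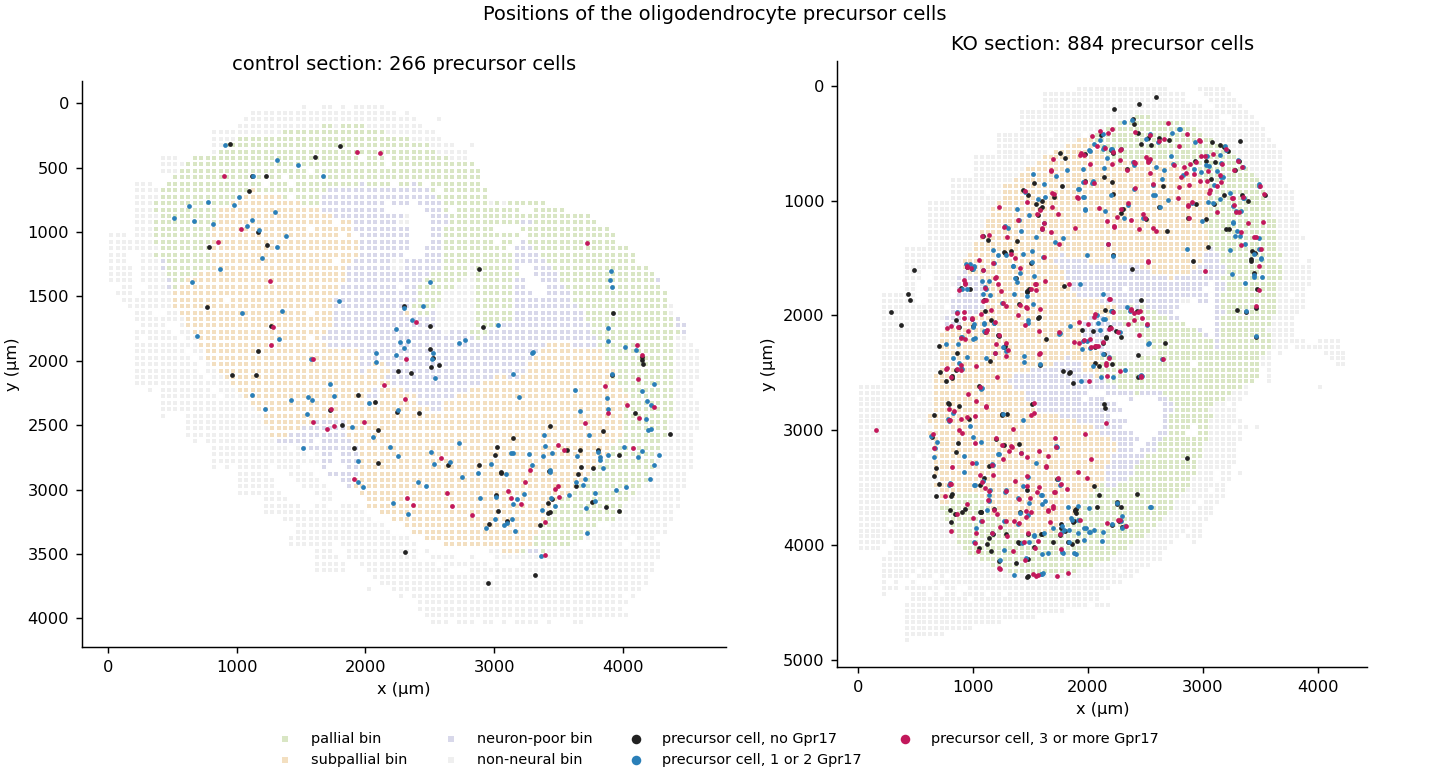
Positions of the precursor cells (dots, coloured by the number of Gpr17 counts in the cell) in the control and KO sections, over the regions assigned to the cells (coloured squares of 50 µm). Axes are in µm from the corner of each section, which was not rotated. The cells are spread through the subpallial and pallial regions and are sparser in the neuron-poor bins.

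Precursor cells as chosen lay almost wholly inside the brain: 258 of 266 control cells (97.0%) and 854 of 884 KO cells (96.6%) did so. This share is partly set by the rule, since *Dcn*, *Col14a1* and other mesenchymal genes also marked the tissue outside the brain. Of the cells left out only for a *Dcn* or *Col14a1* count, 54.2% in the control and 30.3% in the KO lay in the brain. The brain was divided by its neuronal transcripts into a pallial region, the future cortex, a subpallial region, and a neuron-poor remainder that runs mainly along the ventricles. The subpallial region, called the subpallium here, is all other brain tissue that was not pallial. Its genes included *Slc17a6*, and its match to the anatomical subpallium was not checked. The subpallium held most of them, with 150 control cells (56.4%, exact binomial interval 50.2 to 62.4) and 496 KO cells (56.1%, 52.8 to 59.4). The pallium held 74 (27.8%, 22.5 to 33.6) and 302 (34.2%, 31.0 to 37.4), and the neuron-poor tissue 34 and 56. The density was 35.2 cells per mm² in the subpallium and 21.4 in the pallium of the control, and 115 and 98.1 in the KO. In shares of the cells over the minimum, the subpallium had 0.729% in the control and 1.24% in the KO, the pallium 0.556% and 1.07%, and the neuron-poor tissue 0.413% and 0.514%. The tissue outside the brain had 8 and 30 such cells, 0.061% and 0.137%, of which 75.0% and 43.3% rested on a single *Olig1* count.

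Within the pallium precursor cells were fewest near the surface. The other pallial cells were split by distance to the outer edge of the brain into an outer, a middle and an inner class of equal size. The outer class held 13 of 74 control precursor cells (17.6%, exact binomial interval 9.70 to 28.2) and 68 of 302 KO precursor cells (22.5%, 17.9 to 27.7). The middle class held 52.7% and 46.7%, and the inner class 29.7% and 30.8%. Split alike, the subpallium had 33.3% of control (25.9 to 41.5) but 55.8% of KO precursor cells (51.4 to 60.3) in the outer class, with 20.7% and 16.7% in the inner class. The paper describes the planes of both sections as comparable. They were not matched further here, and the part of the plane in this difference was not tested.

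Hemispheres were also compared. They were set by clustering the positions of the brain cells, with no midline checked, and cells outside the brain joined the nearer cluster. In the control, 85 precursor cells (0.381% of cells over the minimum, exact binomial interval 0.305 to 0.471) lay in the hemisphere with a median of 16 transcripts per brain cell, and 181 (0.549%, 0.472 to 0.635) in that with a median of 22. In the KO the hemispheres had medians of 105 and 95 and held 450 (0.857%) and 434 (0.891%) precursor cells.

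**Figure D2:**
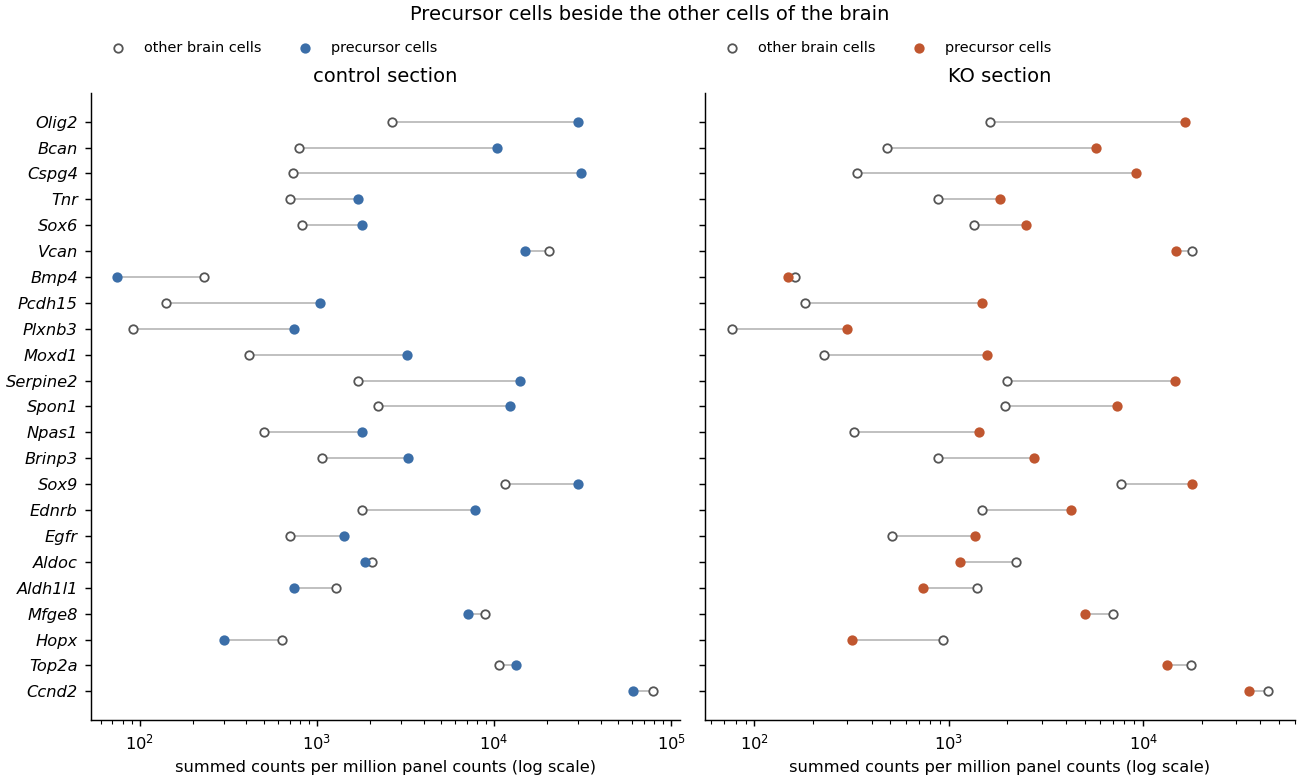
CPM of summed counts (log axis) in precursor cells (filled) and in the other brain cells over the minimum (open), in the control section (left) and the KO section (right). Olig2, Bcan, Cspg4, Pcdh15, Moxd1 and Serpine2 stand far to the right of the other brain cells in both sections, while Vcan, Aldoc, Aldh1l1, Mfge8, Hopx and Ccnd2 lie to their left.

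Across the panel, precursor cells were set against all other cells over the minimum in each section on its own, and a gene was counted where its CPM differed at least 2-fold in the same direction in both. The genes of the rule were left out. Of 280 genes with enough counts 19 were higher (6.79% of those tested) and 38 lower (13.6%). A gene entered by its level in either set of cells, so 6 of the 19 passed only through the precursor cells and 22 of the 38 only through the other cells, and for these the filter favoured a difference. The 57 genes in all became 17 without the limit on *Dcn* and *Col14a1* and 96 with cells thinned to 25 transcripts. Set against the other cells of the brain only, 19 of 266 were higher (7.14%) and 6 lower (2.26%), and 14 genes were higher in both comparisons. Only the other cells were limited to the brain here. The precursor cells outside it, 8 in the control and 30 in the KO, stayed in every ratio to other brain cells. Of the 38 that were lower against all cells, 3 were also lower against the other brain cells.

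Of the 8 panel genes listed for the oligodendrocyte lineage beside the rule, 7 had enough counts. Against all other cells 5 were higher, namely *Olig2*, *Bcan*, *Cspg4*, *Tnr* and *Sox6*. *Tnr*, which encodes the matrix protein tenascin-R, stood at 1716 CPM in control and 1840 CPM in KO precursor cells, against 701 and 877 CPM in other brain cells. *Sox6*, which encodes a transcription factor that holds precursors in the undifferentiated state, stood at 1791 and 2490 CPM against 828 and 1343 CPM, a log2 ratio of 1.11 and 0.89. *Vcan*, the gene of versican, went the other way without reaching 2-fold, with log2 ratios of -0.45 and -0.28 to the other brain cells. *Bmp4* was the lower gene of the list, and it rested on 1 count in the control and 25 in the KO. The median log2 ratio of the 7 genes to all other cells was 1.78 in the control and 1.42 in the KO, against -0.32 and 0.02 over all genes tested.

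Beside *Bcan*, *Olig2* and *Cspg4*, the highest ratios to all other cells belonged to *Pcdh15*, *Moxd1*, *Serpine2*, *Npas1* and *Plxnb3*. These stood above the ratios of *Tnr* and *Sox6* in both sections. *Pcdh15*, a protocadherin gene, stood at 1044 CPM in control precursor cells (14 counts) and 1477 CPM in KO precursor cells (248 counts), against 140 and 182 CPM in other brain cells. *Serpine2*, which encodes a secreted protease inhibitor, stood at 13951 and 14569 CPM against 1710 and 1989 CPM. *Moxd1*, a monooxygenase-like gene, stood at 3208 and 1566 CPM against 412 and 227 CPM. All 3 genes stood above the other brain cells in both sections.

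*Spon1*, the gene of the matrix protein F-spondin, was higher than in other brain cells by 2.47 in the control and 1.91 in the KO on the log2 scale. *Plxnb3*, a semaphorin receptor gene, was higher by 3.03 and 1.96 but rested on 10 and 50 counts. *Brinp3* was higher by 1.63 and 1.65, and *Cdh20*, a cadherin gene, by 1.35 and 1.19. *Npas1*, a transcription factor gene otherwise known from interneurons, stood at 1791 and 1424 CPM in precursor cells against 505 and 327 CPM in other brain cells. *Luzp2* reached 1.59 and 1.27 against all other cells and 1.22 and 0.98 against the other brain cells. Of the 23 panel genes of guidance and adhesion families, 17 had enough counts, and 3 of them (*Pcdh15*, *Plxnb3* and *Cdh20*) were higher while *Unc5b* was lower, beside 6.79% higher and 13.6% lower over all genes tested.

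Of 8 panel genes listed for astroglia and for radial glia, the neural stem cells of the embryo, 6 had enough counts, and 2 were higher than in all other cells and 0 lower, beside 6.79% and 13.6% over all genes tested. *Sox9*, a transcription factor gene of glial progenitors, stood at 29618 CPM in the control and 17815 CPM in the KO, against 11532 and 7699 CPM in other brain cells. *Ednrb*, an endothelin receptor gene, stood at 7833 and 4229 CPM against 1801 and 1478 CPM. *Hopx*, a marker of radial glia, was lower than in other brain cells by 1.10 and 1.57 on the log2 scale, on 4 and 53 counts. *Aldh1l1* and *Mfge8*, also known from astroglia, differed by -0.78 and -0.91, and by -0.33 and -0.49.

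*Egfr*, the gene of a growth factor receptor, was higher in precursor cells than in other brain cells, with 1417 and 1364 CPM against 702 and 511 CPM. Against all cells of the head it was not, with log2 ratios of -0.61 and -0.09. Over the whole head, cells with 2 or more microglial counts had a count of it in 6.29% and 5.81%, against 4.05% and 3.40% of precursor cells, at 25 transcripts per cell, with intervals that overlapped in the control. These were 14.5% and 26.1% against 5.64% and 12.8% without thinning. *Bmp7* and *Pmp22* were likewise past 2-fold only against the other brain cells. Of the 6 growth factor receptor genes on the panel, 0 were higher than in all other cells and *Ngfr* was lower, beside the same 6.79% and 13.6%.

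Of the 4 panel genes listed for mature oligodendrocytes, 3 had few counts. *Opalin* and *Enpp6* had 0 counts in the 13404 transcripts of control precursor cells, where a floor of 3 counts is 224 CPM and the exact Poisson interval ends at 275 CPM. They had 23 and 21 counts in the 167894 transcripts of KO precursor cells. *Mog*, a myelin gene, had 3 and 27 counts, 224 and 161 CPM, against 65.0 and 61.6 CPM in other brain cells. Its log2 ratio to all other cells was 1.89 in the control, with an interval of -0.62 to 3.69, and 1.41 in the KO (0.70 to 2.05). *Tcf7l2*, which is also used by other cell types, was the 1 gene of this list with enough counts and stood at 6267 and 4414 CPM, with log2 ratios of 0.12 and 0.77 to other brain cells. Intervals and floors cover counting error only.

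The lowest ratios to all other cells belonged to *Myh8*, *Efemp1*, *Igf2*, *Hdc* and *Osr1*. All 4 genes of the mesenchymal list were lower, beside 13.6% over all genes tested, and 2 of the 4 passed the filter only through the other cells. The rule had removed cells with *Dcn* or *Col14a1* counts, which held much *Igf2*, so low mesenchymal levels partly restate the choice of cells. *Myh8*, a muscle myosin gene, had 0 counts in control precursor cells, which set at a floor of 3 counts is 7.51-fold lower than in all other cells. The interval of its control log2 ratio ended at -2.56, and in the KO it differed by -3.41 on the log2 scale. *Igf2* differed by -3.07 and -3.27, *Osr1* by -2.95 and -3.07, and *Hdc*, the histidine decarboxylase gene, by -3.22 (on 1 count, interval -8.59 to -0.67) and -3.01. Against the other brain cells *Igf2* did not differ in this way, with log2 ratios of 0.15 and 0.41. Precursor cells outside the brain were kept in these ratios, and their part in them was not tested. The 6 genes that were lower than in the other brain cells were *Fezf2*, *Eomes*, *Lhx2*, *Nfix*, *Ccdc80* and *Hopx*. In control precursor cells *Eomes* rested on 1 count and *Lhx2* on 2, below the floor of 3 counts, and in the KO on 102 and 75. *Fezf2* and *Eomes* belong to deep-layer neurons and to intermediate progenitors of the cortex, and *Lhx2* to its progenitors.

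A segmented cell in a section can hold molecules of its neighbours, and counts of other cell types were found in the precursor cells. The 5 panel genes of microglia and macrophages, *Csf1r*, *Cx3cr1*, *C1qa*, *Aif1* and *Mrc1*, summed to 2611 CPM in control and 2371 CPM in KO precursor cells, against 3695 and 1663 CPM in other brain cells. The 4 endothelial genes summed to 1194 and 4366 CPM against 4325 and 3989 CPM, so that KO but not control precursor cells stood at the level of the surrounding brain. The 4 mural genes showed 821 and 1864 CPM against 1954 and 1902 CPM. The 4 mesenchymal genes beside *Dcn* and *Col14a1* summed to 1567 and 1066 CPM against 1098 and 836 CPM. Of these genes *Aif1* and *Efemp1* had 0 counts in control precursor cells, and every one was counted in the KO. The part of these counts in the differences between sections was not tested.

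*Tbr1* and *Rxrg* are among the genes that set the regions, so their levels by region are a description and no finding. *Tbr1*, a gene of cortical glutamatergic neurons, stood at 22287 CPM in pallial and 2642 CPM in subpallial precursor cells of the control, and at 30789 and 4814 CPM in those of the KO. In the other cells of the same regions it stood at 45477 and 4298 CPM, and at 42952 and 3596 CPM. *Rxrg*, which is expressed in the striatum, stood at 531 CPM in pallial and 8982 CPM in subpallial precursor cells of the control, and at 193 and 10915 CPM in the KO, where the other subpallial cells had 11037 and 12878 CPM. *Olig2*, which was not used to set the regions, differed from the surrounding cells. It was less abundant in pallial than in subpallial other cells, by 1.22 on the log2 scale in both sections, but differed by 0.61 in the control and 0.10 in the KO, pallial over subpallial, among precursor cells. *Serpine2* likewise differed by -1.91 and -2.18 among the other cells and by 0.97 and 0.32 among precursor cells. The other lineage genes showed no common order: *Cspg4* differed by 0.61 and 0.22 among precursor cells, *Sox6* by 0.48 and 0.15, *Tnr* by 0.11 and -0.15 and *Bcan* by 0.04 and -0.61.

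**Figure D3:**
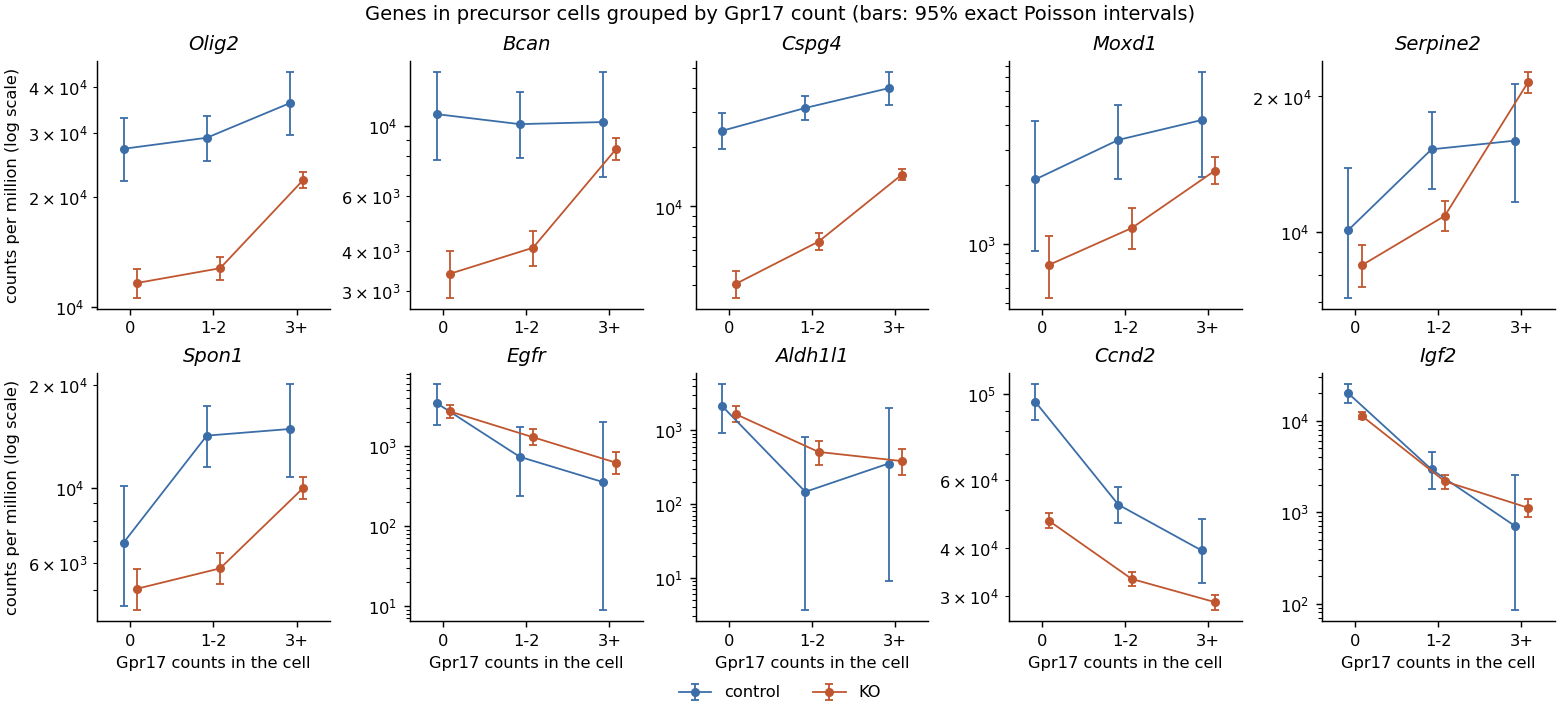
CPM (log axis) of 10 genes in precursor cells with 0, 1 to 2, or 3 and more Gpr17 counts, in the control (blue) and KO (orange) sections; bars are exact Poisson 95% intervals. Egfr, Ccnd2 and Igf2 lie lower and Cspg4, Moxd1 and Spon1 higher in the cells with 3 or more Gpr17 counts than in those with none, in both sections.

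The precursor cells were set out by their *Gpr17* count, as a description, with classes drawn after the values had been seen. In the control 73 cells had 0 counts, 145 had 1 or 2 and 48 had 3 or more, and in the KO these were 225, 315 and 344. *Gpr17* is itself a gene of the rule, so a cell without it had to hold at least 2 *Pdgfra* counts. *Egfr* stood at 3453 CPM in control cells without *Gpr17*, at 733 CPM in the middle class and at 354 CPM (1 count) in cells with 3 or more. In the KO it stood at 2710, 1289 and 618 CPM. *Aldh1l1* was 2125 CPM without *Gpr17* and 354 CPM (1 count) with 3 or more in the control, and 1660 and 383 CPM in the KO. *Ccnd2*, the cyclin D2 gene, had the order of *Egfr*, with 95352, 51636 and 39334 CPM in the control and 46994, 33190 and 28911 CPM in the KO.

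Of the lineage genes, *Cspg4* and *Olig2* stood higher in both sections in the cells with more *Gpr17*. *Cspg4* stood at 24170, 31539 and 39688 CPM in the control and at 4052, 6648 and 14492 CPM in the KO. *Spon1* stood at 6906 CPM without *Gpr17* and 14883 CPM with 3 or more in the control, and at 5053 and 9990 CPM in the KO. *Moxd1* stood at 2125 and 4252 CPM, and at 781 and 2354 CPM. *Pcdh15* had 0 counts without *Gpr17* in the control, and in the KO it stood at 561 CPM without it and 2472 CPM with 3 or more. For 3 further lineage genes the values went different ways in the sections, which was not tested. From the cells without *Gpr17* to those with 3 or more, *Bcan* went from 10890 to 10276 CPM in the control and from 3393 to 8445 CPM in the KO. *Sox6* went from 2125 to 1417 CPM (4 counts) and from 1953 to 3178 CPM, and *Tnr* from 1328 to 1063 CPM (3 counts) and from 1294 to 2339 CPM. *Vcan* stood at 20186, 14082 and 10276 CPM over the classes of rising *Gpr17* in the control. In the KO it stood at 14550, 16451 and 13374 CPM, so the middle class was highest there.

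*Igf2*, *Thbs2* and *Cldn5*, genes of other tissues, stood higher in the cells without *Gpr17* than in those with 3 or more. The full lists of such genes are not given by *Gpr17* count here. *Igf2* stood at 19920 CPM in them in the control and 11352 CPM in the KO, against 709 (2 counts) and 1118 CPM in the cells with 3 or more. *Thbs2*, a thrombospondin gene of mesenchyme, stood at 2390 and 1074 CPM against 354 and 103 CPM, and *Cldn5*, the endothelial claudin gene, at 1594 and 5737 CPM against 709 and 2707 CPM. None of *Olig2*, *Bcan* and *Cspg4* was counted in 13.7% of control and 24.0% of KO cells without *Gpr17*, and in 4.17% and 3.2% of those with 3 or more. The part of such counts in the order of *Egfr*, *Aldh1l1* and *Ccnd2* was not tested.

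Transcripts of a gene of dividing cells were found in precursor cells of both sections. *Top2a*, a topoisomerase gene of proliferating cells, was counted at least 3 times in 19 of 266 control precursor cells (7.14%, exact binomial interval 4.35 to 10.9) and 228 of 884 KO precursor cells (25.8%, 22.9 to 28.8). The other brain cells had 5.54% and 18.8%, and cells with microglial counts 6.45% and 35.4%. Molecules of neighbouring cells were not separated from these counts. As CPM *Top2a* stood at 13354 in control and 13181 in KO precursor cells, a log2 ratio of -0.02, while in all other cells the ratio was 0.76. *Ccnd2* stood at 61325 and 34826 CPM, a log2 ratio of -0.82 beside -0.79 in all other cells. These are the cell cycle genes of the panel, and their sum had a log2 ratio of -0.64 (-0.76 to -0.52) in precursor cells. With every cell thinned to 25 transcripts, *Top2a* was counted at least once in 52 of 247 control (21.1%, 16.1 to 26.7) and 183 of 882 KO precursor cells (20.7%, 18.1 to 23.6), and in 13.9% and 20.5% of the other brain cells. At least 3 counts were then left in 2 control (0.81%) and 22 KO precursor cells (2.49%), against 3.63% and 7.27% of the other brain cells, so the order seen at full depth turned. Without thinning, and with precursor cells deeper than their surroundings, the regions compared as follows. In the KO, 93 of 302 pallial precursor cells (30.8%) had 3 or more *Top2a* counts, against 14.7% of the other pallial cells, and 20.2% of the subpallial ones against 10.5%. In the control these were 6.76% against 2.37%, and 4.00% against 2.01%.

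Precursor cells had fewer dividing cells and fewer cells with radial glia genes around them than other cells had, and somewhat more vascular cells. Among the cells within 50 µm of a precursor cell, those with 3 or more *Top2a* counts made up 1.49% in the control and 6.98% in the KO, against 4.02% and 15.8% around other cells of the same regions. Cells with 4 or more counts of *Hopx*, *Aldoc*, *Aldh1l1* and *Mfge8* made up 1.11% and 4.11% against 3.40% and 6.99%. Vascular cells, taken as those with 2 or more counts of endothelial or of mural genes, made up 3.94% of the neighbours of control precursor cells (exact Poisson interval 3.58 to 4.33) and 6.73% of those of KO precursor cells (6.52 to 6.95), against 3.29% and 5.17%. Within 100 µm the excess of vascular cells was gone in the control, with 3.56% against 3.49%, and stood at 6.68% against 5.61% in the KO. With cells thinned to 50 transcripts the control ratio within 50 µm turned, to -0.11 on the log2 scale. Cells with 2 or more counts of *Csf1r*, *Cx3cr1* and *C1qa* made up 1.22% and 1.74% of the neighbours within 50 µm against 0.869% and 1.08%, and cells with 2 or more *Sst* counts 1.06% and 3.51% against 0.735% and 1.95%. The regions are broad, and place within a region was not held fixed in these shares. A cell near several precursor cells was counted once for each of them. The Poisson intervals of neighbour shares, here and below, take such counts as separate and are too narrow.

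Precursor cells also had other precursor cells near them. They made up 1.05% of the neighbours within 50 µm in the control (0.798 to 1.36) and 2.50% in the KO (2.31 to 2.69), against 0.657% and 0.923% around other cells of the same regions. The nearest other precursor cell lay at a median of 64.5 µm in the control and 16.4 µm in the KO. In the KO 413 of 884 precursor cells (46.7%) had another within 15 µm, in groups of up to 6, and in the control 21 of 266 (7.89%). These close cells were smaller than the rest, with a median volume of 1084 µm³ against 1327 µm³ in the KO and 978 µm³ against 1348 µm³ in the control. When the KO counts were thinned to the depth of the control, 12 of 240 precursor cells (5%) had another within 15 µm. Whether close cells in the KO are separate cells or parts of 1 cell and its neighbours was not tested.

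**Figure D4:**
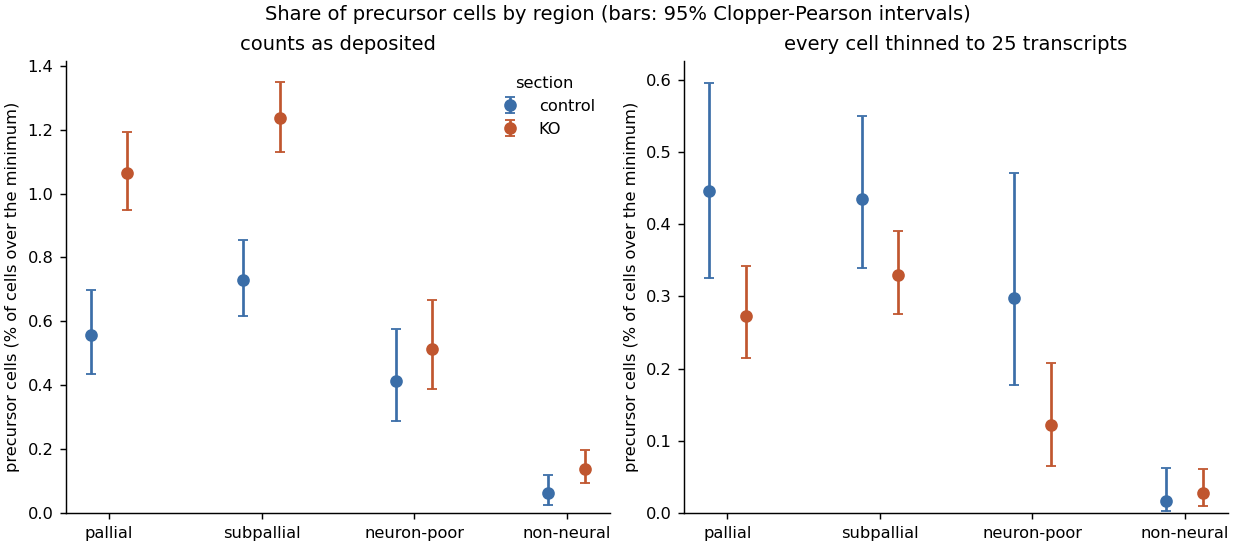
Precursor cells as a percentage of the cells over the minimum, by region, in the control (blue) and KO (orange) sections, from the counts as deposited (left) and with every cell thinned to 25 transcripts (right, on its own scale); bars are 95% Clopper-Pearson intervals. The KO section lies above the control in every region on the left and below it in the pallial, subpallial and neuron-poor regions on the right.

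The first comparison between the groups asked whether the KO section held more precursor cells. By the counts as deposited they made up 0.482% of cells over the minimum in the control (exact binomial interval 0.426 to 0.543) and 0.873% in the KO (0.817 to 0.932), a log2 ratio of 0.86. This direction turned at equal depth, though the intervals of the turned ratios reached close to no difference or included it. With every cell thinned to 25 transcripts, the rule was met by 135 of 43884 cells in the control (0.308%, 0.258 to 0.364) and by 225 of 99572 in the KO (0.226%, 0.197 to 0.257). The log2 ratio was -0.45, with an interval of -0.88 to -0.003. Over 5 random draws the ratio ran from -0.47 to -0.37, a spread of the thinning alone. At 50 transcripts the shares were 0.585% (0.464 to 0.728) and 0.463% (0.419 to 0.510), a log2 ratio of -0.34 (-0.80 to 0.14). When the KO counts alone were thinned to 19.8%, the ratio of the median totals per cell, 240 of 56081 KO cells met the rule (0.428%, 0.376 to 0.486), a log2 ratio of -0.17 whose interval ran from -0.53 to 0.19. Thinning also changed which cells were compared: at 25 transcripts 11347 control and 1678 KO cells were too shallow and left out, and at 50 transcripts 41557 and 13932. The part of this change in the ratios was not tested.

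By region at 25 transcripts, the control pallium held 0.446% (0.325 to 0.596) and the KO pallium 0.273% (0.215 to 0.342). The subpallium held 0.435% (0.339 to 0.550) and 0.329% (0.275 to 0.390). In the neuron-poor tissue the shares were 0.298% on 18 cells and 0.122% on 13 cells, and outside the brain 2 control and 6 KO cells met the rule. The share of precursor cells that lay in the pallium differed between the sections by 0.30 on the log2 scale by the counts as deposited, with an interval of -0.12 to 0.73.

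*Sst*, the gene whose expression sets where Cre is made, was counted in few precursor cells. At 25 transcripts per cell it was found in 8 of 247 control precursor cells (3.24%, exact binomial interval 1.41 to 6.28) and 13 of 882 KO precursor cells (1.47%, 0.79 to 2.51). Over the whole head, cells with 2 or more microglial counts, a cell type that does not make it, had 0.678% (0.273 to 1.39) and 0.86% (0.557 to 1.27). The other brain cells had 2.37% and 1.77%. Without thinning 5.64% of control and 9.39% of KO precursor cells had a count, at medians of 44 and 168.5 transcripts, and the cells with microglial counts 1.24% and 4.16%, at medians of 50 and 159. The intervals of precursor cells and microglia at 25 transcripts overlapped in the KO, and in the control they lay just apart, at 1.41 and 1.39. That gap rests on 8 against 7 cells in a single random draw. Without thinning the control intervals were 3.19 to 9.13 and 0.68 to 2.07. In the KO they were 7.55 to 11.5 and 3.47 to 4.95, so both pairs lay apart. The microglia were not limited to the brain, and the part of *Sst* from neighbouring cells was not tested.

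**Figure D5:**
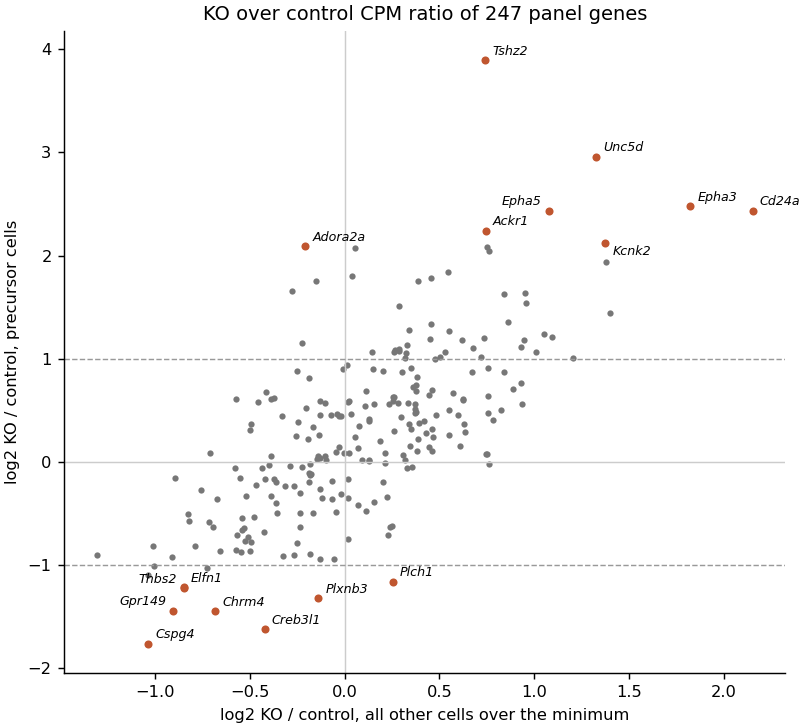
Log2 ratio of KO over control CPM in precursor cells (vertical axis) against the same ratio in all other cells over the minimum (horizontal axis) for 247 panel genes; the 8 highest and 8 lowest genes in precursor cells are named and dashed lines mark 2-fold. Most named genes moved the same way in the other cells, with Adora2a and Plch1 as exceptions.

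Within precursor cells, KO and control CPM were compared over 247 genes at or above the median level. Past 2-fold, 49 were higher in the KO (19.8%) and 11 lower (4.45%), with no test. In 55 of these 60 genes all other cells differed in the same direction, and in 14 they did so by 2-fold or more. The median log2 ratio over the 247 genes was 0.31 in precursor cells and 0.09 in all other cells. With the genes of the rule left out of the totals, 53 genes were past 2-fold in place of 60. After the KO counts had been thinned to the control depth, 40 genes were higher and 18 lower, with a median log2 ratio of 0.26, and 37 were called in the same direction both ways. The filter took the mean of both sections, so 21 of the 49 higher genes passed it only through their KO level and 7 of the 11 lower genes only through their control level. These had to differ between the sections, and the counts support nothing by themselves. Of the higher genes 8 had 3 or fewer control counts, and the counting interval lay above 0 for 33 of the 49 and below 0 for 6 of the 11 lower genes.

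The genes with the highest ratios rested mostly on few control counts. *Tshz2* had 1 control and 186 KO counts, a log2 ratio of 3.89 whose interval ran from 1.20 to 9.40. *Unc5d*, a netrin receptor gene, had 3 and 292 counts (log2 ratio 2.96, interval 1.24 to 5.4, and 1.32 in all other cells), and *Epha3* and *Epha5*, ephrin receptor genes, had ratios of 2.48 and 2.44 beside 1.82 and 1.08. *Cd24a*, a surface protein gene of young neurons, rested on more counts, 61 and 4133, and its log2 ratio of 2.44 (2.03 to 2.87) stood beside 2.15 in all other cells. *Kcnk2*, a potassium channel gene, had 2.12 beside 1.37, and *Ackr1* 2.24 beside 0.74. *Adora2a*, an adenosine receptor gene of striatal neurons, had 3 and 160 counts and 2.09 (0.31 to 4.59) beside -0.21.

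Of the genes with the lowest ratios, *Cspg4* rested on the most counts. It stood at 31185 CPM in 418 control counts and 9190 CPM in 1543 KO counts, a log2 ratio of -1.76 (-1.97 to -1.55) beside -1.03 in all other cells. Once the KO counts had been thinned to the control depth, it rested on 174 KO counts and its ratio stood just past 2-fold lower, while in all other cells it was -0.91. *Creb3l1* (15 and 61 counts), *Chrm4* and *Gpr149* had log2 ratios of -1.62, -1.45 and -1.45. *Elfn1* had -1.21 beside -0.85, and the intervals of *Plxnb3*, *Thbs2* and *Plch1* included 0.

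*Neu4* had 4 and 8 counts, a log2 ratio of -2.65 whose interval of -5.21 to 0.21 included 0. *Olig2* had a log2 ratio of -0.88 beside -0.55 in all other cells and -0.21 at the control depth. *Bcan* had -0.87 beside -0.50 and -0.43 at the control depth, *Tnr* 0.10 beside 0.46, *Sox6* 0.48 beside 0.76 and *Vcan* -0.02 beside -0.18. Of the 6 lineage genes at or above the median level, *Cspg4* was past 2-fold and 0 were higher, with a median log2 ratio of -0.45 beside 0.31 over all genes compared. Of the radial glia and astroglia genes 0 of 5 were past 2-fold. Of the imprinted genes 0 of 4 were, *Igf2*, *Dlk1*, *Peg10* and *Nnat* lying between -0.86 and 0.06, but at the control depth *Igf2* was past it at -1.13. Of the 10 subpallial genes that marked the regions 4 were higher, beside 19.8% over all genes, and at the control depth *Adora2a* (2.26) stayed past 2-fold while *Drd1* (0.84), *Ebf1* (0.98) and *Slc17a6* (0.40) did not. Of the 28 receptor and channel genes 5 were higher and 3 lower, beside 19.8% and 4.45% over all genes.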

How the data were processed

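The authors deposited, per segmented cell and gene, the raw counts of molecules decoded on a MERSCOPE instrument with the Vizgen Pan Neuro panel (500 genes and 50 blank barcodes). Other deposited values were each cell's position, volume and DAPI and PolyT stain, and the single molecules. Software versions of decoding and segmentation were not given in the sources used here, and the authors' clustering was not used here. In pandas 2.3.3, scipy 1.17.1 and numpy 2.4.6 (Python 3.11.15), blank barcodes were left out of all totals and counts were summed over cells and scaled to CPM. Regions were set in bins of 25 µm after Gaussian smoothing (SD 50 µm) of 5 pallial and 12 subpallial genes. Bins where *Dcn*, *Col14a1* and the mesenchymal list passed 2% of counts were set outside the brain. Shares have Clopper-Pearson and sums exact Poisson 95% intervals, and ratio intervals pair opposite ends. Genes were compared where their mean CPM reached the panel's median, for precursor against other cells in either set. Named genes were listed genes with at least 20 counts, the 15 highest and 5 lowest ratios of precursor to other cells, and the 8 highest and 8 lowest KO to control ratios. Genes outside this rule were named after their values had been seen. The code was tested on simulated data. Members and lists were chosen with earlier results of these data known.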

Additional observations from a re-analysis of the deposited data

How the results depend on the processing

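Of 183 recomputed values 140 stayed within their counting error or within 1.5 times the count, 39 moved and 4 reversed, the cause not tested unless the setting itself shows it. No paired analysis was possible because each group is 1 section. Values below are log2 ratios unless called genes. The KO to control share of precursor cells (0.86) turned to -0.45 and -0.34 with cells thinned to 25 and 50 transcripts and to -0.17 with KO counts thinned to the control depth, a setting chosen after seeing the data. It was 1.28 and 0.34 at minimums of 10 and 50 transcripts, 1.19 at a *Gpr17* and *Pdgfra* sum of 3, 1.17 and 1.22 against the shallower control hemisphere, and 0.48 with cells within 15 µm counted once, also added later. The ratio for *Gpr17* without *Pdgfra* (-2.20) was -0.76 at a sum of 1. Genes past 2-fold against other cells (57) were 17 without the limit on *Dcn* and *Col14a1*, 96 at 25 transcripts and 25 against the other brain cells. Genes past 2-fold between KO and control (60) were 95 at 25 transcripts, 124 over all genes counted in both sections and 122 at a 1.5-fold limit. The cell cycle ratio (-0.64) was -0.83 at a minimum of 50, -0.80 at a sum of 1, -0.22 at 2 *Olig1* counts, -0.21 by *Gpr17* alone, -0.46 without the mesenchymal limit, -0.51 and -0.47 when thinned to 25 and 50, and -0.31 and -0.86 in crossed pairs of hemispheres. Precursor cells as neighbours in the control (0.68) had 0.086 by *Gpr17* alone and 1.21 within 30 µm. In the KO (1.44) they had 1.29 at a minimum of 50, 2.25 and 1.01 within 30 and 100 µm and 0.99 at the control depth. Vascular neighbours in the control (0.26) turned to -0.11 when thinned to 50, and had 0.40 and 0.034 at minimums of 10 and 50 and 0.026 within 100 µm. In the KO (0.38) they had 0.32 at a minimum of 50 and at a sum of 1, 0.44 when thinned to 25, 0.43 in 1 hemisphere, 0.51 and 0.25 within 30 and 100 µm and 0.53 at the control depth. The pallial share (0.30) ran from 0.02 to 0.58. The *Sst* share (-1.14, interval -3.00 to 0.83) ran from -1.67 to 0.74 and changed sign where *Sst* counts were not thinned, a setting added later, with intervals that include 0 under every setting run. In the control the depth leaves most genes with few counts: a gene of 3 counts in 13404 is at the floor.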

Other observations

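Cells with 2 or more *Gpr17* counts but without *Olig1*, *Dcn* or *Col14a1* numbered 32 among control and 74 among KO cells, and 68.8% and 74.3% of them lay in the brain. They held less *Olig2* than the precursor cells, 12749 CPM in the control and 3776 CPM in the KO, and more *Igf2*, 17530 and 28862 CPM. *Moxd1* stood at 6374 and 2787 CPM and *Plxnb3* at 2390 and 539 CPM in them, beside 3208 and 1566 CPM, and 746 and 298 CPM, in the precursor cells. The 32 and 74 cells held a median of 33.5 and 131 transcripts. The values of *Plxnb3* in both sections and of *Moxd1* in the control thus rest on few counts, and no interval was set on them. These cells were looked at after their values had been seen and were given no name.

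The median PolyT stain per volume of precursor cells was 0.902 times that of the other brain cells over the minimum in the control and 0.797 times in the KO section. For the DAPI stain these ratios were 0.829 and 0.685.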
